A study of Mus musculus with 18 samples.

Results

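The genes described here are 10 genes of antigen presentation to CD8+ T cells, measured in cancer cells that had grown alone or with fibroblasts: B2m, H2-K1, H2-D1, Tap1, Tap2, Tapbp, Psmb8, Psmb9 and Nlrc5, which serve major histocompatibility complex (MHC) class I presentation, and Cd274, which encodes PD-L1. They were chosen by symbol, ignoring case, and all 10 were found among the 24455 symbols counted for 168FARN and the 24532 counted for LLC1. The study compared 2 GFP-tagged mouse cancer lines grown as hanging drop spheroids for a week, with sorting of the GFP+ cancer cells before RNA sequencing, and asked what fibroblasts change in cancer cells and whether the fibroblasts' Prrx1 gene matters. 168FARN, a breast cancer line, was grown alone, with WT MMTV-CAFs (cancer-associated fibroblasts from mammary tumours of MMTV-PyMT mice, carrying the non-targeting guide sgNS), or with MMTV-CAFs in which Prrx1 had been deleted by CRISPR/Cas9 (sgPrrx1). LLC1, a lung cancer line, was grown alone, with WT wound healing fibroblasts taken from dorsal skin at day 10 after wounding, or with the same kind of fibroblast after Prrx1 deletion. Cocultures held 3 fibroblasts for each cancer cell, and each of the 6 groups had 3 libraries. The cancer cells themselves carried no deletion in any group, so their Prrx1 level does not check the labels. The 2 lines were paired with different fibroblasts, so line and fibroblast type cannot be told apart.

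Almost every nucleated cell shows samples of its own proteins on MHC class I. The immunoproteasome, which holds the subunits Psmb8 (LMP7) and Psmb9 (LMP2) in place of constitutive ones, cuts proteins into peptides. The transporter of Tap1 and Tap2 pumps the peptides into the endoplasmic reticulum, where tapasin (Tapbp) holds empty class I molecules next to it, and a heavy chain (H2-K1 or H2-D1) with peptide and the light chain B2m then goes to the surface. Nlrc5 is the transactivator of class I genes. PD-L1 (Cd274) works in the other direction, since it engages PD-1 on T cells and dampens them. Interferons, above all interferon gamma, are textbook inducers of all these genes in tumour cells, including breast and lung cancer cells.

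In the RefSeq annotation of GRCm38.p6, the assembly of mm10, 7 of the 10 genes lay on chromosome 17, in or near the mouse MHC. Psmb9 (chr17:34182030-34187330), Tap1 (chr17:34187556-34197225), Psmb8 (chr17:34198195-34201454) and Tap2 (chr17:34204479-34216321) followed each other within 34292 bases. Psmb9 on the minus strand and Tap1 on the plus strand ran away from each other across a gap of 225 bases. H2-K1 (chr17:33996012-34000619) and Tapbp (chr17:33919478-33929290) lay on one side of that cluster and H2-D1 (chr17:35263094-35267497) on the other. B2m (chr2:122147687-122153082), Nlrc5 (chr8:94434335-94527272) and Cd274 (chr19:29362107-29388095) lay elsewhere. B2m overlapped the span of Patl2, Tapbp that of Gm19412, Cd274 those of Plgrkt and Gm36043, and Nlrc5 those of 9330175E14Rik, Gm51584 and Mir7072. The library kit did not mark strand, so reads in such overlaps cannot be assigned by strand.

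Promoter windows, 250 bases before to 50 bases after a start site, were taken from RefSeq on GRCm38.p6 for 8 of the 10 genes, with 2 windows for H2-K1. The stretches below are those that relate to the results: B2m and Psmb8 before their start sites, the gap that Psmb9 and Tap1 share, and 30 bases around a match in the Cd274 window, all printed on the plus strand. The Cd274 window lies inside the span of that gene given above, before an internal start site and not before the first base of the span. Capitals mark matches to the motifs searched on both strands, which were GAAANNGAA (core of the interferon-stimulated response element), TTCNNNGAA (gamma-activated site), GGGACTTTC (NF-kB), CCAAT (Y box), TGACGTCA and TGACGCA (X2 box).
B2m, chr2:122147437-122147686: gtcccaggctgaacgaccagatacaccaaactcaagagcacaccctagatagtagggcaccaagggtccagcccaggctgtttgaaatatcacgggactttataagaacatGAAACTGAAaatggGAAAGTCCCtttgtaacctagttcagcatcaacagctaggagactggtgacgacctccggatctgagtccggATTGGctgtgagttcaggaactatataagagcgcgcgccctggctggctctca
Psmb9 and Tap1, chr17:34187331-34187555: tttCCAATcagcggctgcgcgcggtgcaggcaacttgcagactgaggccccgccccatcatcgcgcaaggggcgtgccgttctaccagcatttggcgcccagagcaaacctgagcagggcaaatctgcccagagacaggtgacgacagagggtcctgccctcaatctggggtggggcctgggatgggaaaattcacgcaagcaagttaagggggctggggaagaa
Psmb8, chr17:34197945-34198194: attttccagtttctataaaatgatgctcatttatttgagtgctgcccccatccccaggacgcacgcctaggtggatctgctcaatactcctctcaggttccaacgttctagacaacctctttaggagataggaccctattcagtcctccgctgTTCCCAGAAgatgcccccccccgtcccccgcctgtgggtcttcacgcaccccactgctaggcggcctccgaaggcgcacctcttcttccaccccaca
Cd274, chr19:29367352-29367381: actgggtggcTTCGGTTTCacagacagcgg

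Within these windows the response element core was found in B2m at position -139 from the start site, and on the minus strand in Cd274 at position -76. Of 32851 windows of the same length over all genes, 8.56% held that core. The gamma-activated site was found in Psmb8 alone among the 8 genes (8.3% of all windows). The NF-kB motif was found in B2m alone (0.353% of all windows), at position -125 on the minus strand, where it shares no base with the response element core. The Y box occurred in 6 of the 8 genes against 37.4% of all windows, a share counted over windows and not over genes. The matches of Psmb9 and Tap1 are the same site, in the gap that these genes share. The 2 X2 box forms, present in 1.79% and 2.12% of all windows, matched none of the 8 genes. Both are exact strings, so variants of the site are missed. The H2-K1 and H2-D1 windows hold TGACGCG and the B2m window holds TGACGAC, each before a Y box, and neither string was searched. A match is a run of letters and does not show that a factor binds there. A miss does not show that a promoter lacks the element. The H2-K1 and H2-D1 windows, for example, hold TTTCACTTC, which is close to the response element core but was not matched on either strand.

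Total counts ran from 48315037 to 68933002 per library in 168FARN and from 66129117 to 103997557 in LLC1. All 10 genes passed the filter on low counts in both lines, 13540 and 12873 genes being tested. LLC1 sgPrrx1 replicate 3 stood apart from the other 8 libraries of its line: its log2 CPM (CPM being counts scaled to the library's total and TMM factor) correlated with its replicates at r = 0.949 and 0.950, against at least 0.988 for every other pair of replicates in LLC1. Leaving it out lowered the biological coefficient of variation of LLC1 from 0.228 to 0.112, against 0.0728 in 168FARN. The LLC1 values of the 10 genes and the counts over gene lists are therefore given with and without it.

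The summed level of 10 fibroblast markers differed between groups of 168FARN: 122 to 126 CPM alone, 794 to 865 CPM with WT CAFs and 219 to 228 CPM with sgPrrx1 CAFs. In LLC1 the sums were 1637 to 1719, 1183 to 1206 and 1480 to 1567 CPM. Most of each was Col3a1, a collagen gene that the line carried on its own (means of 1579, 1077 and 1441 CPM). Some other markers of the list were higher there in WT coculture than alone, given as values with no test: Col1a1 stood at 0.524, 0.356 and 0.244 CPM alone, 8.01, 10.6 and 7.20 with WT and 0.528, 0.693 and 0.822 with sgPrrx1 fibroblasts. Dcn stood at 2.10, 2.65 and 3.81 CPM alone, 29.6, 27.3 and 33.3 with WT and 21.5, 20.6 and 22.3 with sgPrrx1 fibroblasts. Col1a2 followed Col1a1, with at most 0.0642 CPM alone and 8.22 to 9.27 CPM in WT coculture. Pdgfrb, Lum and Col3a1 were lower in every WT library than in every library of cells alone. Of 10 immune markers, Ptprc, Adgre1, Itgam and Cd3e did not exceed 0.142 CPM in any library. The sum of the 10 moved with the groups, at 47.7 to 52.1, 29.3 to 32.0 and 35.1 to 36.2 CPM in 168FARN (alone, WT, sgPrrx1). In LLC1 it was 21.9 to 23.2, 41.2 to 42.4 and 41.6 to 69.9 CPM. Cd68, a lysosomal macrophage marker, led the LLC1 sum, with means of 16.2, 36.6 and 46.0 CPM. Lyz2 and Cd68 were lower in both cocultures of 168FARN than alone. Csf1r was higher there, with at most 0.467 CPM alone and up to 1.52 CPM in coculture. The sum of 5 endothelial markers, Emcn being at 0 throughout, was 0.535 to 0.658, 5.71 to 6.74 and 4.08 to 4.64 CPM in 168FARN, mostly Cdh5. In LLC1 it was 0.0250 to 0.103, 5.57 to 6.67 and 0.103 to 0.352 CPM, mostly Kdr in WT coculture. The part of these markers in the results below was not tested, and in sorted bulk RNA more fibroblasts cannot be told apart from more fibroblast-type RNA per cancer cell. Of 7 epithelial markers, Krt8 was the only abundant one in 168FARN (331 CPM alone on average), Epcam was at 0 in cells alone, and no LLC1 group summed to 1 CPM.

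Per transcript length, the light chain led in both lines. In cells alone, in RPKM, counts scaled to library size and to the kilobases of the longest coding transcript, on the scale of the joint fit, B2m stood at 1191 ± 28.3 in 168FARN and 2056 ± 147 in LLC1 (SD, n = 3). H2-D1 followed at 574 ± 6.82 and 615 ± 49.3, then H2-K1 at 201 ± 6.82 and 160 ± 14.9. Cd274 was the lowest of the 9 genes with a length, at 1.99 ± 0.205 and 2.76 ± 0.220. The order in 168FARN continued with Psmb8 (131 ± 4.68), Tapbp (93.7 ± 2.25), Psmb9 (32.1 ± 2.59), Tap2 (29.4 ± 0.977) and Tap1 (22.8 ± 0.178). Only Psmb9 and Tap2 overlapped among these neighbours. In LLC1 it continued with Tapbp (108 ± 5.44), Tap2 (17.8 ± 1.07), Psmb8 (14.4 ± 1.87), Tap1 (12.8 ± 0.463) and Psmb9 (3.69 ± 0.655), where Psmb8 and Tap1 overlapped. The 2 immunoproteasome genes set the lines apart most: Psmb8 was 9.12 times and Psmb9 8.68 times as high in 168FARN as in LLC1. The other ratios ran from 0.579 for B2m to 1.78 for Tap1, and only H2-D1 had overlapping ranges. These ratios compare 2 lines measured in separate tables, and no test was run on them.

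In 168FARN those of the 10 genes that passed the test moved in both directions. With sgPrrx1 CAFs in place of WT CAFs, PD-L1, both immunoproteasome subunits, the transactivator Nlrc5 and the heavy chain gene H2-D1 rose, while the loading genes Tapbp and Tap2 fell. Of the 10 genes, 5 rose and 2 fell between WT and sgPrrx1 coculture, against 26.9% of all 13540 genes called higher and 33.1% called lower (edgeR quasi-likelihood test, adjusted p under 0.05). From cells alone to WT coculture 1 rose and 4 fell (33.4% of all genes called higher, 30.7% lower). That balance turned with no scaling factors, where 4 rose and 3 fell (36.3% and 27.9% of all genes). From cells alone to sgPrrx1 coculture 4 rose and 2 fell (25.7% and 24.1% of all genes). The median log2 fold change of the 10 genes was -0.023, 0.18 and 0.21 in WT coculture against alone, sgPrrx1 coculture against alone and sgPrrx1 against WT coculture, beside 0.0061, 0.0046 and -0.028 over all genes tested. Much of the transcriptome passed in each of these comparisons, so the number of genes called is close to the background in several places and says little about the set. The comparisons share groups, so their values are given side by side and not correlated.

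**Figure D1:**
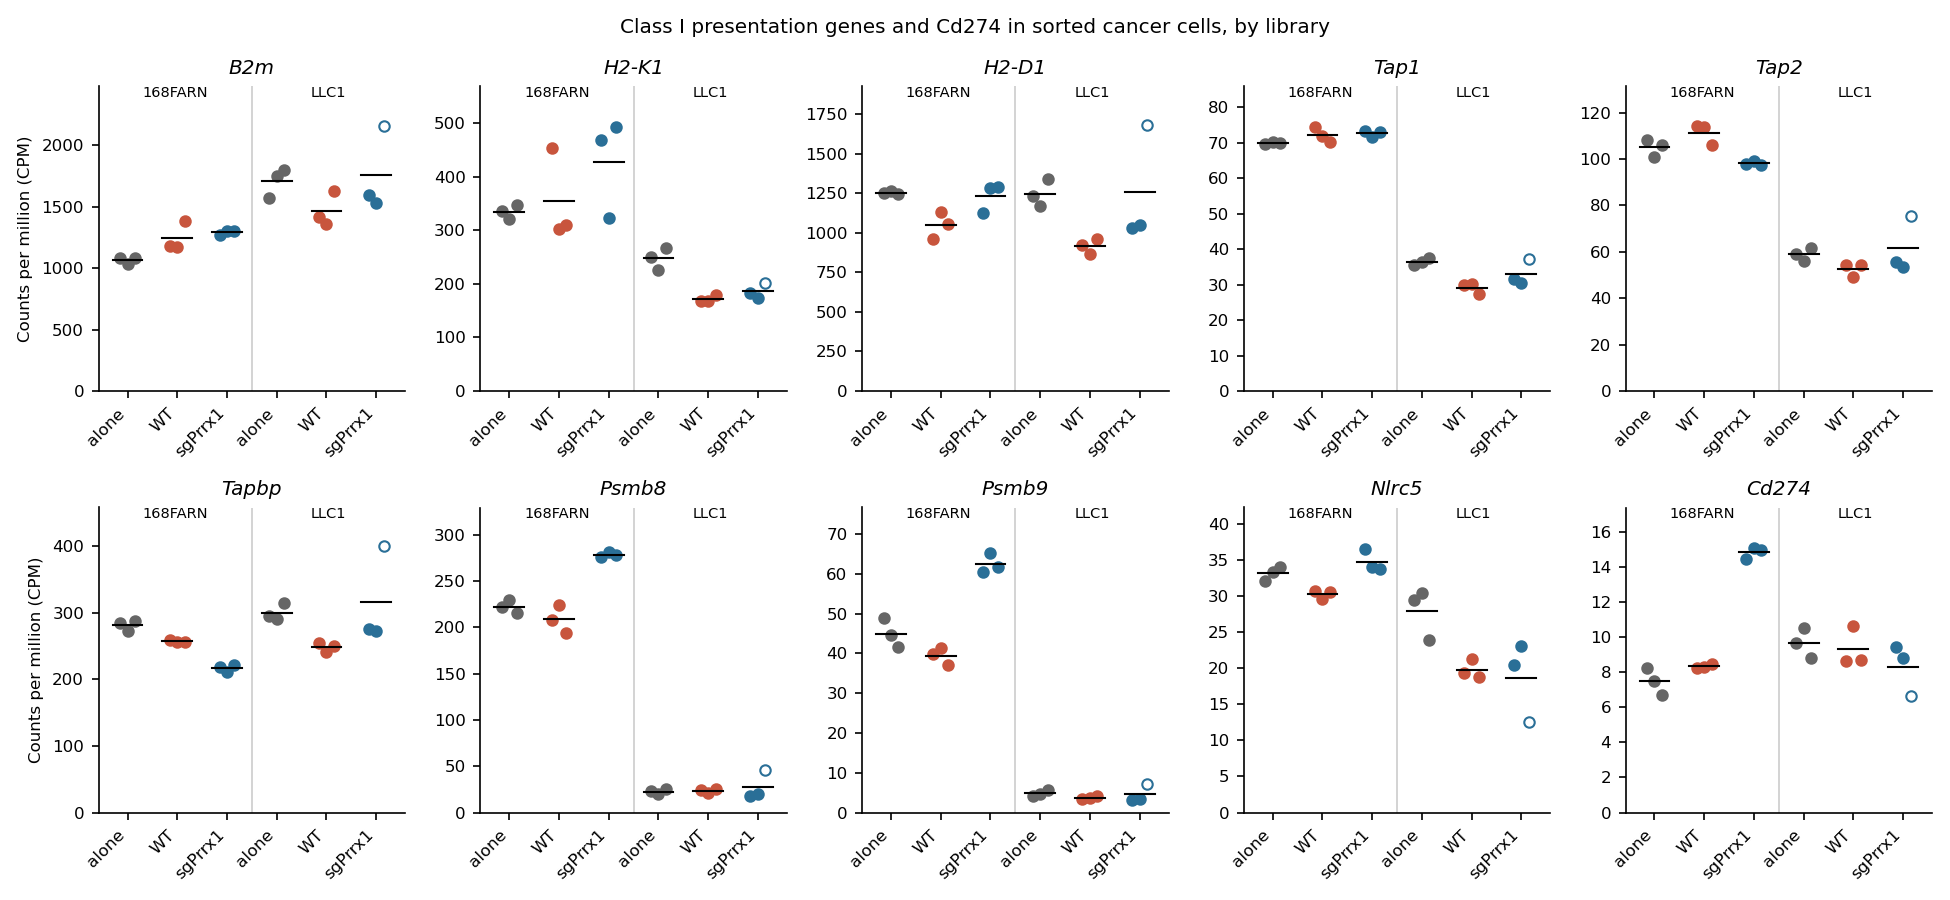
CPM (vertical axis, starting at 0) of the 10 genes in each library of 168FARN and LLC1, grouped as cells alone, WT coculture and sgPrrx1 coculture; points are libraries, lines are group means, and the open point is LLC1 sgPrrx1 replicate 3. In 168FARN the sgPrrx1 points of Psmb8, Psmb9 and Cd274 lie above all others and those of Tapbp lie below, and in LLC1 the open point is the highest for 6 genes (B2m, H2-D1, Tap2, Tapbp, Psmb8 and Psmb9) and the lowest for Nlrc5 and Cd274.

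B2m, the light chain that every class I molecule needs, had 1079, 1029.8 and 1084 CPM in 168FARN alone, 1179, 1169.6 and 1381 with WT fibroblasts and 1271, 1306 and 1302 with sgPrrx1 fibroblasts. All 6 coculture libraries exceeded the 3 of cells alone, and the 2 coculture groups overlapped. B2m was 1.17-fold as high in WT coculture as alone (log2 fold change 0.22, SE 0.052, adjusted p = 0.00297) and 1.22-fold in sgPrrx1 coculture (log2 fold change 0.28, SE 0.052, adjusted p = 0.00107). Between sgPrrx1 and WT coculture it did not pass the test (log2 fold change 0.056, 95% interval -0.059 to 0.17, adjusted p = 0.378). That last value rested on 1 library: without WT replicate 3, the highest of its group, it was 0.14 with an adjusted p of 0.000521.

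H2-D1, a classical heavy chain gene, had 1254, 1264 and 1244 CPM alone, 962, 1135 and 1053 with WT fibroblasts and 1125, 1284 and 1288 with sgPrrx1 fibroblasts. Every WT library lay below every library of cells alone, while 2 of the 3 sgPrrx1 libraries lay above the range of cells alone and 1 lay below it, within the WT range. It fell by 16.3% in WT coculture against cells alone (log2 fold change -0.26, SE 0.059, adjusted p = 0.00270) and was 1.17-fold as high in sgPrrx1 as in WT coculture (log2 fold change 0.23, SE 0.059, adjusted p = 0.00556). Against cells alone, sgPrrx1 coculture gave log2 fold change -0.025, SE 0.059, adjusted p = 0.754.

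H2-K1, the other classical heavy chain gene, varied most of the 10 among the replicates of each coculture, with 337, 321 and 347 CPM alone, 453, 302 and 311 with WT fibroblasts and 469, 323 and 492 with sgPrrx1 fibroblasts. WT replicate 1 and sgPrrx1 replicates 1 and 3 were high and the other coculture libraries lay at the level of cells alone or just below it. The coefficient of variation was 3.78% alone, 23.8% in WT coculture and 21.5% in sgPrrx1 coculture. No comparison passed the test (adjusted p = 0.672, 0.101 and 0.189, in the order above). Without WT replicate 1, sgPrrx1 coculture was higher than WT coculture (log2 fold change 0.48, adjusted p = 0.0164) and than cells alone (0.35, adjusted p = 0.0424). Without sgPrrx1 replicate 2 the same 2 values were 0.43 (adjusted p = 0.0243) and 0.52 (adjusted p = 0.0133). With only the 2 groups in the fit, sgPrrx1 coculture against alone passed as well (0.35, adjusted p = 0.0454).

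The 2 heavy chain genes are related and polymorphic. The reads were aligned to a C57BL/6 genome while 168FARN comes from a BALB/c background, so how a read was divided between the 2 genes is uncertain. The study lists its MMTV-PyMT fibroblasts as FVB/N, another strain, and its mouse dermal fibroblasts as C57BL/6. Whether fibroblast RNA entered these counts was not tested. The counts of the 2 genes were therefore also summed, a choice made after the spread of H2-K1 had been seen. H2-K1 took 20.3% to 21.8% of the sum in cells alone, but 32.0%, 21.0% and 22.8% in WT coculture and 29.4%, 20.1% and 27.7% in sgPrrx1 coculture. The summed level was 1591, 1586 and 1591 CPM alone, 1415, 1437 and 1364 CPM with WT CAFs and 1594, 1607 and 1780.1 CPM in sgPrrx1 coculture. The sum was thus lower in each WT library than in every other library of the line. It fell from cells alone to WT coculture (log2 fold change -0.18, SE 0.036, adjusted p = 0.00124), rose from WT to sgPrrx1 coculture (log2 fold change 0.24, SE 0.036, adjusted p = 0.000163) and did not pass between cells alone and sgPrrx1 coculture (log2 fold change 0.063, SE 0.036, adjusted p = 0.170). In LLC1, where line and reference share the strain, the H2-K1 share was 16.2% to 16.9% alone and 15.4% to 16.3% in WT coculture, with 15.0%, 14.2% and 10.7% in sgPrrx1 coculture, the last in replicate 3.

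**Figure D2:**
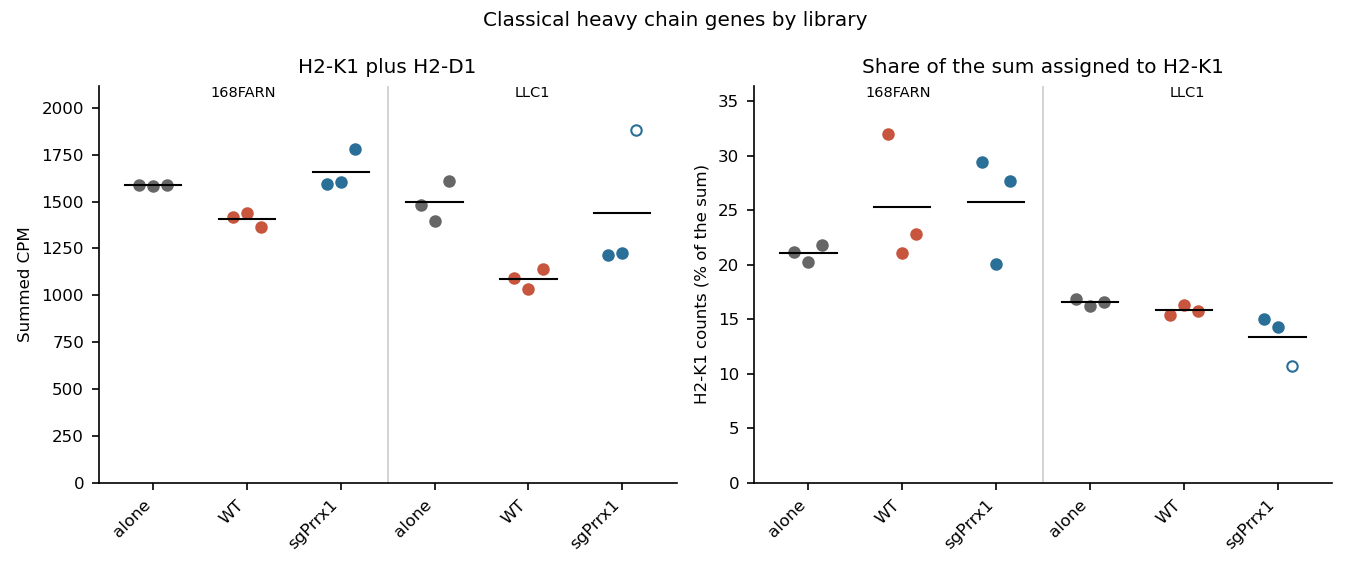
Left, summed CPM of H2-K1 and H2-D1 in each library; right, the percentage of that sum assigned to H2-K1. Points are libraries, lines group means and the open point LLC1 sgPrrx1 replicate 3; the 3 WT libraries of 168FARN have the lowest sums of that line (1364 to 1437 CPM), while the H2-K1 share scatters from 20.1% to 32.0% in its cocultures.

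Tap1 and Tap2 form the peptide transporter. Tap1 had 69.8, 70.2 and 69.8 CPM alone, 74.4, 72.0 and 70.1 with WT fibroblasts and 73.4, 71.6 and 73.0 with sgPrrx1 fibroblasts, and passed none of the 3 comparisons (log2 fold change 0.046, 0.056 and 0.0095). With no scaling factors it was called in WT coculture against alone (0.074, adjusted p = 0.0489). The interval of the sgPrrx1 to WT difference was -0.055 to 0.074, so a change of the size seen in its neighbour Psmb9, with which it shares the printed gap, lay outside it. Tap2 had 108, 101 and 106 CPM alone, 114, 114 and 106 with WT fibroblasts and 97.7, 99.0 and 97.6 with sgPrrx1 fibroblasts. The sgPrrx1 libraries were the lowest 3 of the line. Tap2 fell by 11.9% from WT to sgPrrx1 coculture (log2 fold change -0.18, SE 0.037, adjusted p = 0.00132). Against cells alone the fall was smaller (log2 fold change -0.098, SE 0.037, adjusted p = 0.0466) and was lost under 11 of 17 other settings. WT coculture against cells alone did not pass (log2 fold change 0.085, SE 0.037, adjusted p = 0.0656) but was called under 5 of the 17, with DESeq2, with no scaling factors, with at least 10 counts in every library, with voom and without WT replicate 3 (adjusted p from 0.0126 to 0.0413).

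Tapbp, the tapasin bridge between transporter and heavy chain, had 285, 273 and 288 CPM alone, 259, 257 and 256 with WT fibroblasts and 219, 211 and 221 with sgPrrx1 fibroblasts, and the 3 groups did not overlap. It fell by 8.73% with WT CAFs against cells alone (log2 fold change -0.13, SE 0.029, adjusted p = 0.00202), fell by 22.9% with sgPrrx1 CAFs against cells alone (log2 fold change -0.38, SE 0.029, adjusted p = 1.39e-06) and fell by 15.6% from WT to sgPrrx1 coculture (log2 fold change -0.24, SE 0.029, adjusted p = 2.78e-05). Each of these values passed in all 17 other settings.

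Psmb9, the immunoproteasome subunit that replaces Psmb6, had 48.8, 44.6 and 41.5 CPM alone, 39.9, 41.4 and 37.0 with WT fibroblasts and 60.5, 65.4 and 61.6 with sgPrrx1 fibroblasts. The sgPrrx1 libraries lay above all others, and the WT libraries lay below those of cells alone, with the nearest pair almost touching. Psmb9 was 1.58-fold as high in sgPrrx1 as in WT coculture (log2 fold change 0.66, SE 0.059, adjusted p = 2.94e-06) and 1.39-fold as high as in cells alone (log2 fold change 0.47, SE 0.059, adjusted p = 5.88e-05). It fell by 12.2% in WT coculture against cells alone (log2 fold change -0.19, SE 0.059, adjusted p = 0.0161), a call that was lost without replicate 1 of the cells alone (adjusted p = 0.0667) or without WT replicate 3 (adjusted p = 0.0597). Psmb8, the subunit that replaces Psmb5 and cuts after hydrophobic residues, had 222, 229 and 215 CPM alone, 208, 224 and 194 with WT fibroblasts and 276, 281 and 278 with sgPrrx1 fibroblasts. Here the cells alone and the WT libraries overlapped and the sgPrrx1 libraries stood above both. It was 1.33-fold as high in sgPrrx1 as in WT coculture (log2 fold change 0.42, SE 0.047, adjusted p = 1.78e-05) and 1.25-fold as high as in cells alone (log2 fold change 0.32, SE 0.047, adjusted p = 0.000176), and gave log2 fold change -0.091, SE 0.047, adjusted p = 0.108 between WT coculture and cells alone. That last comparison passed without WT replicate 2 (log2 fold change -0.15, adjusted p = 0.00755) and with the replicate number as a block (-0.093, adjusted p = 0.0419).

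Set against the constitutive subunits that they replace, the immunoproteasome genes did not all move the same way. In RPKM, Psmb8 over Psmb5 was 1.08 to 1.17 in 168FARN alone, 1.38 to 1.59 in WT coculture and 1.23 to 1.27 in sgPrrx1 coculture. The ratio was highest in WT coculture, where Psmb5 itself fell (log2 fold change -0.50, SE 0.031, adjusted p = 1.29e-07). Psmb9 over Psmb6 was 0.0816 to 0.0939, 0.0970 to 0.109 and 0.108 to 0.113 in the same order, so both cocultures lay above cells alone. Psmb10 over Psmb7 was 0.103 to 0.113 alone, 0.103 to 0.108 in WT coculture and 0.135 to 0.138 in sgPrrx1 coculture, where the 3 libraries stood clear of the others. In LLC1 the Psmb8 ratio was 0.166 to 0.195 alone, 0.130 to 0.152 in WT coculture and 0.121 to 0.136 in sgPrrx1 coculture. In the same order the Psmb9 ratio was 0.0263 to 0.0317, 0.0142 to 0.0162 and 0.0163 to 0.0190. Both ratios were lower in every coculture library than in any of cells alone. The Psmb10 ratio went the other way in LLC1, with 0.0837 to 0.0981 alone and 0.105 to 0.123 in WT coculture. Its values in sgPrrx1 coculture overlapped both (0.0936 to 0.106). These ratios are given as descriptions with no test.

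**Figure D3:**
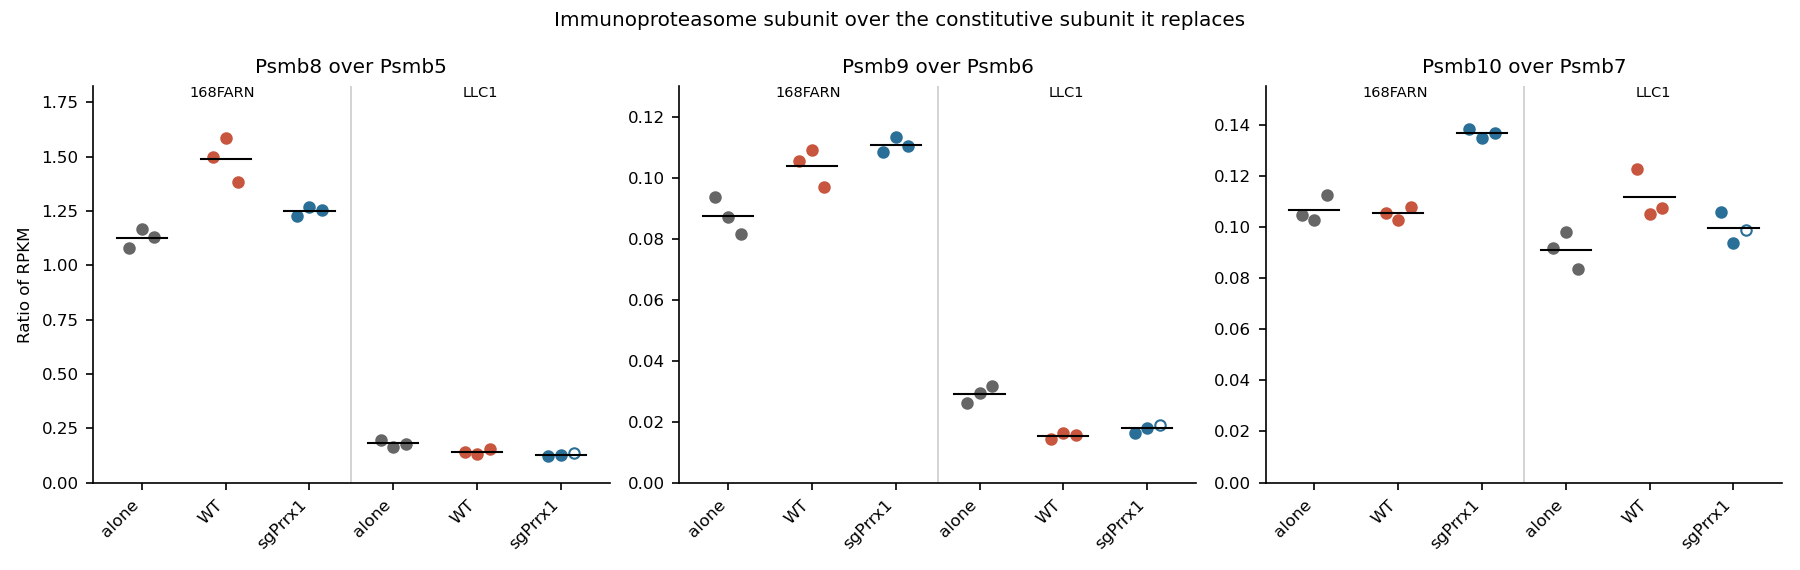
Ratio of the RPKM of each immunoproteasome subunit gene to that of the constitutive subunit gene it replaces (vertical axis, starting at 0), by library, in the 3 groups of each line; lines are group means and the open point is LLC1 sgPrrx1 replicate 3. The Psmb8 ratio exceeds 1 in all 168FARN libraries (1.08 to 1.59) and lies between 0.121 and 0.195 in LLC1.

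Nlrc5, the class I transactivator, had 32.1, 33.4 and 34.0 CPM in 168FARN alone, 30.7, 29.6 and 30.6 with WT fibroblasts and 36.5, 34.0 and 33.8 with sgPrrx1 fibroblasts. The WT libraries were the lowest 3. Nlrc5 fell by 8.49% in WT coculture against cells alone (log2 fold change -0.13, SE 0.040, adjusted p = 0.0147), a call that was lost with no scaling factors (log2 fold change -0.100, adjusted p = 0.0523). It was 1.15-fold as high in sgPrrx1 as in WT coculture (log2 fold change 0.20, SE 0.039, adjusted p = 0.00123) and gave log2 fold change 0.069, SE 0.039, adjusted p = 0.171 against cells alone.

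Cd274, the gene of the inhibitory ligand PD-L1, had the largest log2 fold change of the 10 genes in both comparisons with sgPrrx1 CAFs. It had 8.26, 7.48 and 6.71 CPM in 168FARN alone, 8.24, 8.29 and 8.48 with WT fibroblasts and 14.5, 15.1 and 14.9 with sgPrrx1 fibroblasts, from raw counts of 326 to 480, 418 to 580 and 693 to 903. The sgPrrx1 libraries were far above the other 6, whose ranges overlapped. Cd274 was 1.98-fold as high in sgPrrx1 coculture as in cells alone (log2 fold change 0.99, SE 0.072, adjusted p = 8.47e-07) and 1.78-fold as high as in WT coculture (log2 fold change 0.83, SE 0.070, adjusted p = 2.03e-06). WT coculture against cells alone did not pass (log2 fold change 0.16, SE 0.073, adjusted p = 0.0852), except without replicate 1 of the cells alone (0.23, adjusted p = 0.0158) and with no scaling factors (0.18, adjusted p = 0.0451). The rises were called in all 17 other settings, with log2 fold changes of 0.92 to 1.06 against cells alone and 0.78 to 0.86 against WT coculture. The fibroblast markers were lower in sgPrrx1 than in WT coculture, 219 to 228 against 794 to 865 CPM, so their sum moved the other way from Cd274 in that comparison, while against cells alone (122 to 126 CPM) it moved the same way.

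In LLC1, without the library that stood apart, 6 of the 10 genes fell in coculture with WT wound healing fibroblasts and none rose. Over all 9 libraries, H2-K1 alone passed in that comparison (4.25% of 12873 genes were called higher and 4.58% lower). None passed for sgPrrx1 coculture against cells alone (2.01% higher, 2.31% lower) or against WT coculture (0% higher, 0.0544% lower) in edgeR, with 2 genes each at an unadjusted p under 0.05. DESeq2 called 1 and 0 of the 10 genes in these 2 comparisons (8.58% of all genes higher and 6.54% lower in the first, 1.98% and 1.91% in the second). Limma voom with sample quality weights called 7 genes, all lower, in the first (22.1% of all genes higher, 25.9% lower) and 2 higher and 1 lower in the second (18.2% each way). Without sgPrrx1 replicate 3, 6 genes fell in WT coculture against alone (22% of 13088 genes higher, 22.2% lower), 5 fell in sgPrrx1 coculture against alone (12.5% higher, 14.2% lower) and 0 passed between the cocultures (2.94% higher, 2.75% lower), 3 of the 10 having an unadjusted p under 0.05 there. The median log2 fold changes of the 10 genes over all 9 libraries were -0.30, -0.032 and 0.23 in these 3 comparisons, beside -0.016, -0.0062 and 0.020 over all genes. Without that library they were -0.29, -0.24 and 0.068, beside -0.0019, -0.0044 and -0.0060, so this 1 library moved the medians of both comparisons with sgPrrx1 coculture by over 1.5 times.

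Among the chain genes of LLC1, H2-K1 had 249.9, 226 and 267 CPM alone, 168, 168 and 179 with WT fibroblasts and 183, 175 and 201 with sgPrrx1 fibroblasts. All 6 coculture libraries were below all 3 of cells alone, also replicate 3. H2-K1 fell by 30.6% in WT coculture (log2 fold change -0.53, SE 0.098, adjusted p = 0.0163) and without sgPrrx1 replicate 3 the test gave log2 fold change -0.52, SE 0.073, adjusted p = 0.000809. The call over 9 libraries was lost without replicate 1 or 3 of the cells alone or without any 1 of the 3 WT libraries (adjusted p from 0.0608 to 0.0862), and when H2-K1 and H2-D1 were summed (log2 fold change -0.46, adjusted p = 0.141). Between sgPrrx1 coculture and cells alone it missed the threshold over 9 libraries (log2 fold change -0.41, SE 0.098, adjusted p = 0.0564) and passed without that library (log2 fold change -0.46, SE 0.082, adjusted p = 0.00461). H2-D1 had 1231, 1170.2 and 1343 CPM alone, 923, 864 and 958 with WT fibroblasts and 1032, 1052 and 1681 with sgPrrx1 fibroblasts, replicate 3 being the highest of the 9. Without it H2-D1 fell in WT coculture (log2 fold change -0.44, SE 0.063, adjusted p = 0.000921) and in sgPrrx1 coculture (log2 fold change -0.25, SE 0.071, adjusted p = 0.0306), whereas over 9 libraries the adjusted p was 0.183 and 0.984. B2m had 1574, 1748 and 1798 CPM alone, 1419.7, 1361 and 1626 with WT fibroblasts and 1596, 1529.8 and 2159.9 with sgPrrx1 fibroblasts, and the groups overlapped. In edgeR it passed in WT coculture without the library that stood apart (log2 fold change -0.21, SE 0.073, adjusted p = 0.0488), and over 9 libraries limma voom with sample quality weights called it there too (log2 fold change -0.19, adjusted p = 0.0210).

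Of the transport and loading genes of LLC1, Tap1 had 35.5, 36.3 and 37.6 CPM alone, 29.8, 30.3 and 27.3 with WT fibroblasts and 31.7, 30.5 and 37.2 with sgPrrx1 fibroblasts. The WT libraries all lay below cells alone, and so did sgPrrx1 replicates 1 and 2. Without replicate 3 Tap1 fell in WT coculture (log2 fold change -0.31, SE 0.061, adjusted p = 0.00374) and in sgPrrx1 coculture (log2 fold change -0.22, SE 0.068, adjusted p = 0.0404). Tapbp had 296, 291 and 314 CPM alone, 254, 241 and 250.1 with WT fibroblasts and 276, 273 and 399.6 with sgPrrx1 fibroblasts, and without replicate 3 it fell in WT coculture (log2 fold change -0.26, SE 0.054, adjusted p = 0.00472) but did not pass in sgPrrx1 coculture (adjusted p = 0.169). Tap2 had 59.1, 56.0 and 61.9 CPM, 54.3, 49.3 and 54.5 and 55.5, 53.5 and 75.5 in the same order and in edgeR passed neither with nor without that library (adjusted p = 0.540 and 0.0738 for WT coculture against alone). Voom over 9 libraries called it lower in WT coculture than alone (log2 fold change -0.13, adjusted p = 0.0408).

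The immunoproteasome genes were low in LLC1. Psmb8 had 23.2, 19.7 and 25.0 CPM alone, 24.0, 20.6 and 25.7 with WT fibroblasts and 17.7, 19.6 and 45.8 with sgPrrx1 fibroblasts, and passed no comparison over 9 libraries in edgeR. Voom over the same libraries called it lower in sgPrrx1 coculture than alone (log2 fold change -0.26, adjusted p = 0.0413) and than in WT coculture (-0.35, adjusted p = 0.0157). Its sgPrrx1 replicates 1 and 2 were the lowest of the line and replicate 3 the highest, so that its log2 fold change between sgPrrx1 and WT coculture was 0.24 with and -0.34 without replicate 3 (adjusted p = 0.787 and 0.12). Psmb9 had 4.12, 4.60 and 5.71 CPM alone, 3.45, 3.62 and 4.24 with WT fibroblasts and 3.04, 3.51 and 7.24 with sgPrrx1 fibroblasts, and without replicate 3 it fell in sgPrrx1 coculture against cells alone (log2 fold change -0.55, SE 0.17, adjusted p = 0.0406). In replicate 3 the constitutive subunit genes were high too, Psmb5 for example at 180.1 CPM against 77.9 and 81.9 in the other sgPrrx1 libraries.

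Nlrc5 had 29.5, 30.4 and 23.9 CPM in LLC1 alone, 19.3, 21.3 and 18.8 with WT fibroblasts and 20.4, 23.1 and 12.5 with sgPrrx1 fibroblasts, every coculture library being below every library of cells alone. Without replicate 3, whose value was the lowest, Nlrc5 fell in WT coculture (log2 fold change -0.48, SE 0.096, adjusted p = 0.00423) and in sgPrrx1 coculture (log2 fold change -0.35, SE 0.11, adjusted p = 0.0425), and over 9 libraries the adjusted p was 0.198 and 0.152. Cd274 had 9.65, 10.5 and 8.78 CPM alone, 8.63, 10.6 and 8.71 with WT fibroblasts and 9.41, 8.79 and 6.66 with sgPrrx1 fibroblasts, and the groups overlapped in each of the 3 comparisons, with and without replicate 3. It passed no comparison in edgeR over 9 libraries or without replicate 3. Between sgPrrx1 and WT coculture the log2 fold change was -0.17 (95% interval -0.53 to 0.19) and without replicate 3 it was -0.040 (95% interval -0.30 to 0.22), both intervals ending below the 0.83 measured in 168FARN.

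**Figure D4:**
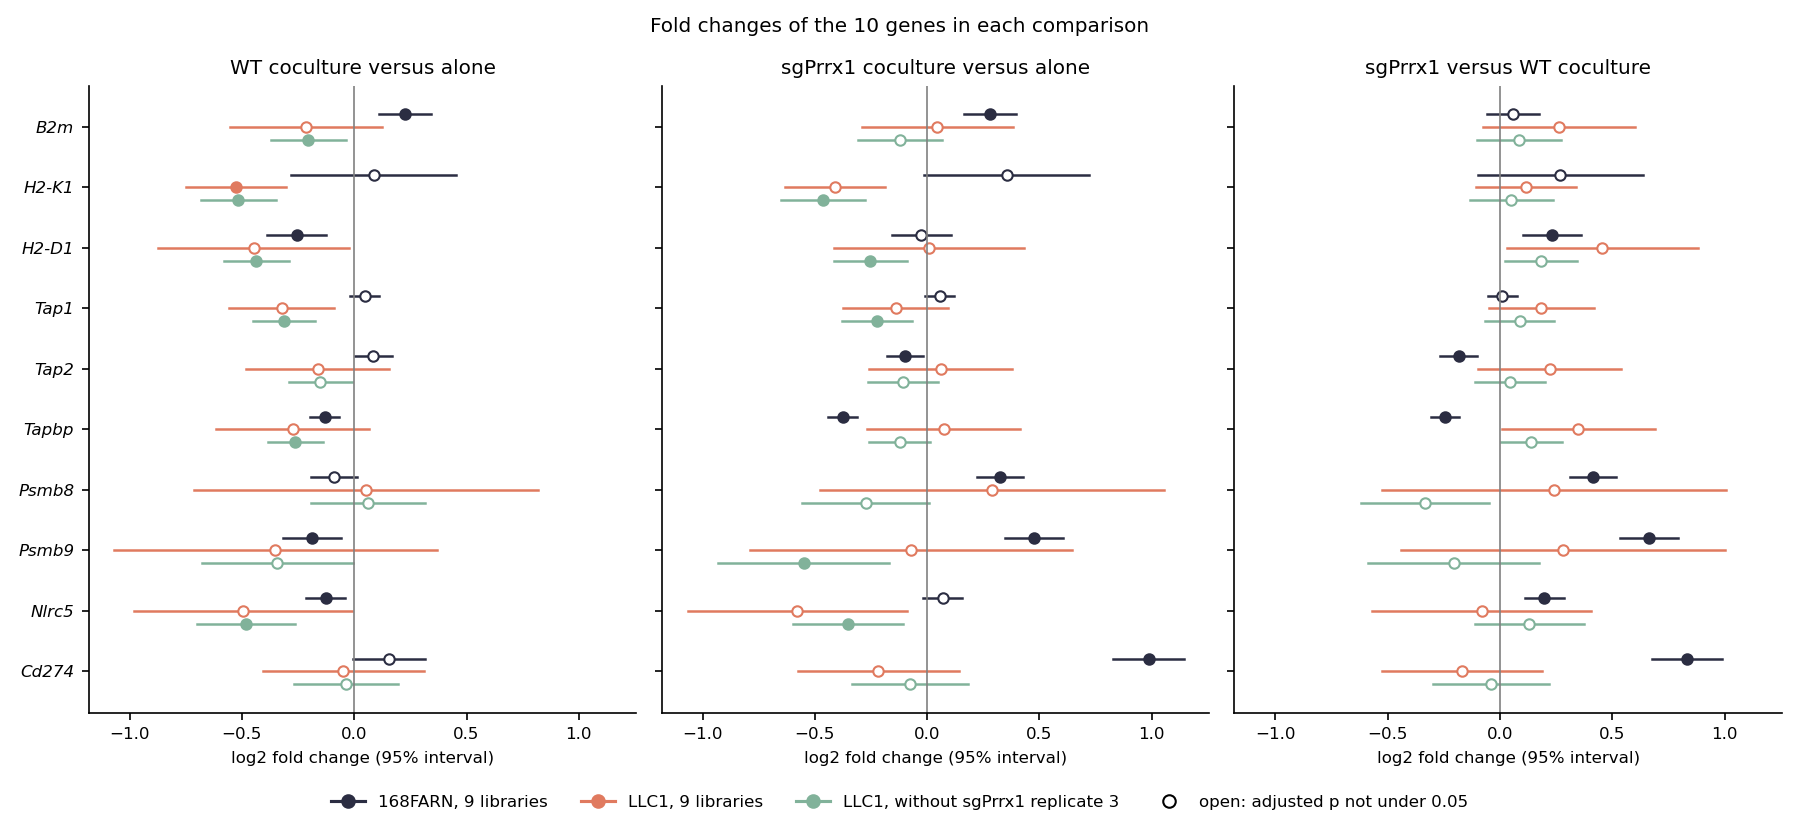
Log2 fold change (horizontal axis) of the 10 genes with 95% intervals in the 3 comparisons, for 168FARN, for LLC1 with 9 libraries and for LLC1 without sgPrrx1 replicate 3; filled points have an adjusted p under 0.05. The Cd274 points of 168FARN lie at 0.99 and 0.83 in the 2 comparisons with sgPrrx1 coculture, while the LLC1 intervals of Cd274 include 0 and become narrower without the library that stood apart.

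The lines were compared by interaction terms, the log2 fold change in 168FARN minus that in LLC1, in a joint edgeR fit of 14344 genes. Cd274 differed most, by 1.21, SE 0.19, adjusted p = 0.000409 in sgPrrx1 coculture against alone and by 1.01, SE 0.18, adjusted p = 0.00131 in sgPrrx1 against WT coculture. Without LLC1 sgPrrx1 replicate 3 these were 1.06, SE 0.13, adjusted p = 2.28e-05 and 0.90, SE 0.13, adjusted p = 5.75e-05. Tapbp differed in the opposite direction between sgPrrx1 and WT coculture (-0.57, SE 0.14, adjusted p = 0.0106, and -0.36, SE 0.062, adjusted p = 0.000245 without replicate 3). In WT coculture against alone, Tap1 (0.37, SE 0.095, adjusted p = 0.00870), B2m (0.44, SE 0.15, adjusted p = 0.0381) and H2-K1 (0.61, SE 0.22, adjusted p = 0.0495) differed, all with the higher change in 168FARN, and H2-K1 also differed in sgPrrx1 coculture against alone (0.78, SE 0.22, adjusted p = 0.0311). With RLE scaling Tap1 alone kept its call in WT coculture against alone, and those of B2m and H2-K1 there were lost. With the counts of H2-K1 and H2-D1 summed, a choice made after seeing the data, neither H2-K1 call was kept: the differences were 0.27 (SE 0.17, adjusted p = 0.270) in WT coculture and 0.13 (SE 0.17, adjusted p = 0.700) in sgPrrx1 coculture against alone. Without LLC1 sgPrrx1 replicate 3 the summed differences passed, at 0.24 (SE 0.078, adjusted p = 0.0159) and 0.35 (SE 0.083, adjusted p = 0.00512). Of the 10 genes, 3 of the differences were thus called higher in WT coculture against alone (15.7% of all genes higher, 13.7% lower), 2 higher in sgPrrx1 coculture against alone (6.69% and 5.45%), and 1 higher and 1 lower in sgPrrx1 against WT coculture (8.24% and 11%).

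Without LLC1 sgPrrx1 replicate 3 the joint fit of 14619 genes called 5, 8 and 4 of the 10 genes in the same 3 comparisons. In WT coculture against alone all 5 were higher in 168FARN (26% of all genes higher, 26.5% lower). In sgPrrx1 coculture against alone 7 were higher and 1 lower (14% and 14.1% of all genes), and in sgPrrx1 against WT coculture 3 were higher and 1 lower (21.9% and 22.7%). The immunoproteasome genes were among those gained: Psmb8 differed by 0.78, SE 0.14, adjusted p = 0.000251 and Psmb9 by 0.90, SE 0.16, adjusted p = 0.000391 in sgPrrx1 against WT coculture, where with replicate 3 they gave 0.21, SE 0.34, adjusted p = 0.773 and 0.42, SE 0.32, adjusted p = 0.416.

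Interferon signalling genes, 20 by list, were read beside these genes because interferons induce the 10 genes. In 168FARN 19 were tested, and 11 rose and 3 fell in WT coculture, 9 rose and 7 fell in sgPrrx1 coculture, and 5 rose and 10 fell between WT and sgPrrx1 coculture. Over all genes the shares called were 33.4% higher and 30.7% lower, 25.7% and 24.1%, and 26.9% and 33.1% in these 3 comparisons. The medians were 0.19, 0.13 and -0.13 on the log2 scale. Irf7, a transcription factor of interferon responses that interferons themselves induce, stood at 52.3, 50.0 and 52.0 CPM alone, 68.3, 67.9 and 69.2 with WT fibroblasts and 173, 177 and 171 with sgPrrx1 fibroblasts, and no group overlapped another. It rose from WT to sgPrrx1 coculture (log2 fold change 1.34, SE 0.028, adjusted p = 1.29e-10), as did Socs1, a feedback inhibitor of interferon signalling (log2 fold change 0.31, SE 0.086, adjusted p = 0.00981). Socs3, an inhibitor of cytokine signalling through STAT3, went the other way, with 141, 137 and 136 CPM alone, 337, 334 and 328 with WT fibroblasts and 192, 190.4 and 193 with sgPrrx1 fibroblasts (log2 fold change -0.80, SE 0.026, adjusted p = 2.28e-09 between the cocultures). The kinase gene Jak2 had a similar course, with a rise in WT coculture (log2 fold change 0.66, SE 0.044, adjusted p = 2.37e-07) and a fall from WT to sgPrrx1 coculture (log2 fold change -0.53, SE 0.044, adjusted p = 1.79e-06). Stat2, which transmits type I interferon signals, rose in sgPrrx1 coculture against cells alone (log2 fold change 0.54, SE 0.039, adjusted p = 9.79e-07) and in WT coculture (log2 fold change 0.46, SE 0.039, adjusted p = 1.68e-06), and between the cocultures its value was 0.076 (adjusted p = 0.119). The receptor gene Ifngr1 fell in sgPrrx1 coculture (log2 fold change -0.65, SE 0.073, adjusted p = 2.93e-05) and in WT coculture (log2 fold change -0.35, SE 0.072, adjusted p = 0.00142), and it also fell from WT to sgPrrx1 coculture (-0.30, SE 0.073, adjusted p = 0.00415).

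**Figure D5:**
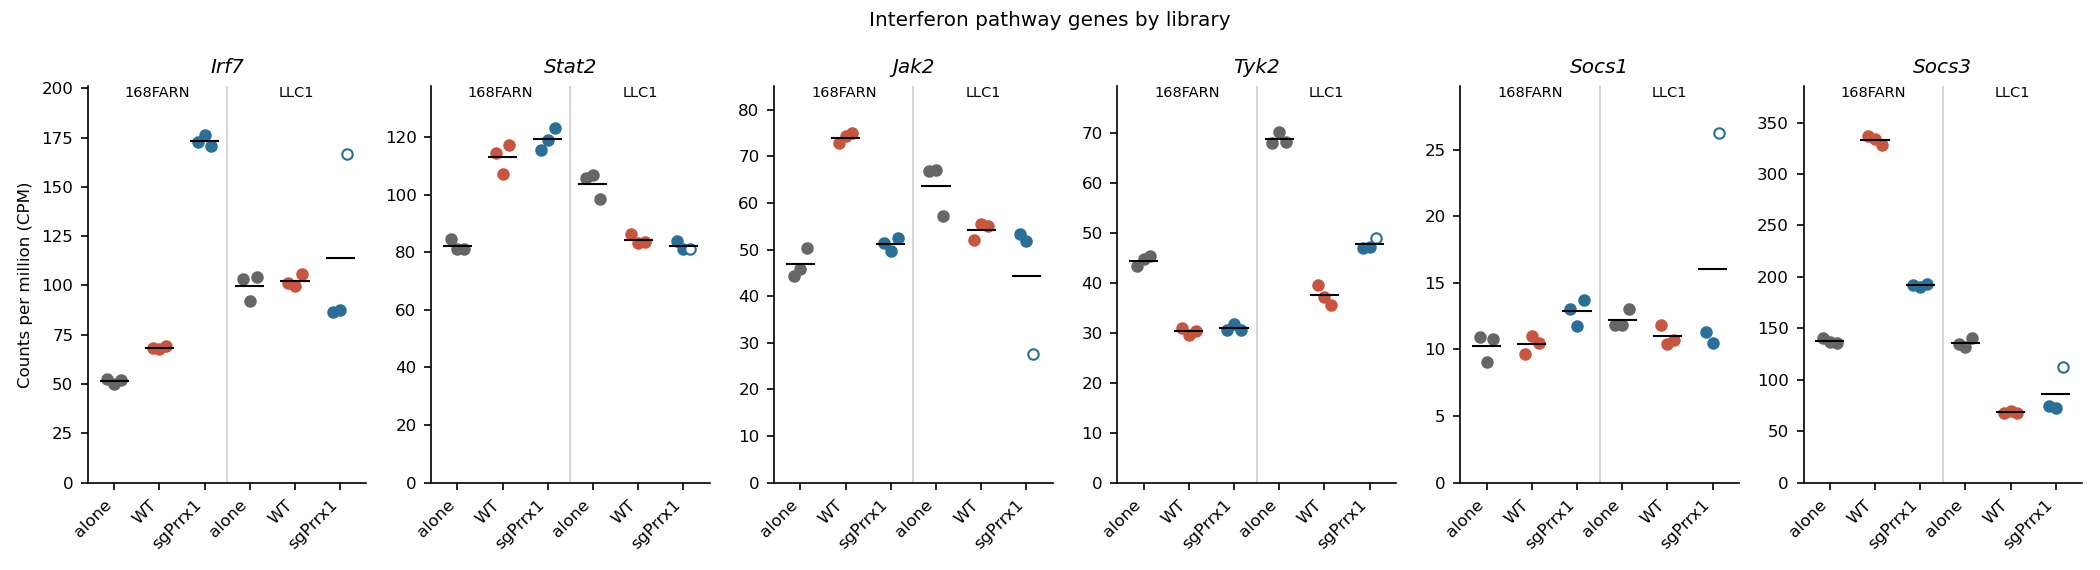
CPM (vertical axis, starting at 0) of 6 interferon pathway genes by library in the 3 groups of each line; lines are group means and the open point is LLC1 sgPrrx1 replicate 3. Irf7 stands at 171 to 177 CPM in 168FARN with sgPrrx1 CAFs against 50.0 to 69.2 in the other 6 libraries, while Socs3 is highest with WT CAFs.

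In LLC1 no gene of the interferon list rose over 9 libraries, and 4, 3 and 0 of 19 fell in the 3 comparisons in edgeR, with 8, 10 and 1 at an unadjusted p under 0.05 (4.58%, 2.31% and 0.0544% of all genes called lower). Without replicate 3, 14 fell in WT coculture (22.2% of all genes), 9 fell in sgPrrx1 coculture (14.2%) and none fell between the cocultures, where Tyk2 rose (log2 fold change 0.32, SE 0.056, adjusted p = 0.0281, a gene named after its value was seen), with medians of -0.23, -0.27 and -0.015, against -0.24, -0.27 and 0.087 over 9 libraries. Socs3 fell in WT coculture (log2 fold change -0.99, SE 0.17, adjusted p = 0.0114) and the kinase gene Tyk2 fell in WT coculture (log2 fold change -0.88, SE 0.080, adjusted p = 0.00139) and sgPrrx1 coculture (log2 fold change -0.53, SE 0.080, adjusted p = 0.0147). Irf1, which drives class I genes, fell in sgPrrx1 coculture (log2 fold change -0.53, SE 0.11, adjusted p = 0.0370), from 82.3, 82.8 and 87.1 CPM to 53.6, 53.7 and 67.5, and in WT coculture (log2 fold change -0.61, SE 0.11, adjusted p = 0.0140, and -0.60, adjusted p = 5.89e-05 without sgPrrx1 replicate 3). Of the calls of Socs3, Tyk2 and, in sgPrrx1 coculture, Irf1, that of Tyk2 in WT coculture passed whichever single library was left out. The call of Socs3 was lost without replicate 1 or 2 of the cells alone or WT replicate 1 or 3 (adjusted p from 0.0501 to 0.0604), that of Tyk2 in sgPrrx1 coculture without any 1 of the cells alone or sgPrrx1 replicate 1 or 2 (0.0568 to 0.0993), and that of Irf1 in sgPrrx1 coculture without any 1 of the 9 libraries other than sgPrrx1 replicate 3 (0.0739 to 0.153).

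Of 14 partner genes in peptide loading and the proteasome, 1 rose and 8 fell in 168FARN with WT CAFs, 7 rose and 4 fell with sgPrrx1 CAFs, and 8 rose and 2 fell between the cocultures (33.4% of all genes higher and 30.7% lower, 25.7% and 24.1%, 26.9% and 33.1%), with medians of -0.18, 0.066 and 0.21. Psme2, a subunit of the proteasome activator PA28, had 150.1, 165 and 165 CPM alone, 110.0, 116 and 98.5 with WT fibroblasts and 189, 181 and 186 with sgPrrx1 fibroblasts, and no group overlapped another. It fell in WT coculture (log2 fold change -0.57, SE 0.058, adjusted p = 6.48e-06) and rose from WT to sgPrrx1 coculture (log2 fold change 0.78, SE 0.058, adjusted p = 7.81e-07). Psmb10, the third immunoproteasome subunit, rose likewise (log2 fold change 0.75, SE 0.041, adjusted p = 8.95e-08), from 19.3, 19.5 and 19.9 to 32.2, 32.5 and 33.7 CPM. The loading chaperone gene Calr gave log2 fold change -0.070, SE 0.025, adjusted p = 0.0313, a call that was lost with RLE scaling, with limma voom, with only the 2 groups in the fit and without WT replicate 3 or sgPrrx1 replicate 1 or 3 (adjusted p from 0.0551 to 0.149). Pdia3, another member of the loading complex, fell with sgPrrx1 CAFs against cells alone (log2 fold change -0.21, SE 0.021, adjusted p = 1.02e-05) and with WT CAFs (log2 fold change -0.16, SE 0.021, adjusted p = 3.42e-05). In LLC1, 1 of the 14 rose and 0 fell in each comparison with cells alone (4.25% of all genes higher and 4.58% lower, 2.01% and 2.31%). The gene that rose was Calr (log2 fold change 0.56, SE 0.13, adjusted p = 0.0316 in WT and log2 fold change 0.63, SE 0.13, adjusted p = 0.0333 in sgPrrx1 coculture). Its call in WT coculture was lost without any 1 library of cells alone or WT coculture (adjusted p from 0.0699 to 0.130) and that in sgPrrx1 coculture without any 1 of the 9 libraries other than sgPrrx1 replicate 3 (0.0559 to 0.160). Of the 14, 9 rose and 0 fell in WT coculture and 4 rose and 0 fell in sgPrrx1 coculture without replicate 3 (22% of all genes higher and 22.2% lower, 12.5% and 14.2%). Without it Psme2 fell between the LLC1 cocultures, the opposite of its direction in 168FARN (log2 fold change -0.36, SE 0.083, adjusted p = 0.0454, named after its value was seen), and the difference between the lines was not tested for this gene.

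The list of 24 other class I and class I-like genes also took in H2-Ke6, which is not a class I gene. Of the 24, 18 were tested in 168FARN. In WT coculture 1 rose and 8 fell, in sgPrrx1 coculture 3 rose and 2 fell, and between the cocultures 7 rose and 1 fell (33.4% of all genes higher and 30.7% lower, 25.7% and 24.1%, 26.9% and 33.1%), with medians of -0.15, 0.044 and 0.18. H2-Ke6 was the 1 that fell between the cocultures (log2 fold change -0.40, SE 0.058, adjusted p = 0.000132). It was also among those that fell against cells alone, with sgPrrx1 CAFs (-0.55, SE 0.058, adjusted p = 1.72e-05) and with WT CAFs (-0.15, SE 0.057, adjusted p = 0.0349). H2-M3, which presents formylated peptides, had 80.9, 86.4 and 80.8 CPM alone, 55.7, 61.9 and 51.1 with WT fibroblasts and 96.6, 95.9 and 96.2 with sgPrrx1 fibroblasts. The WT libraries were lowest and the sgPrrx1 libraries highest, and the difference between them was log2 fold change 0.77, SE 0.058, adjusted p = 8.23e-07. H2-T22, a ligand of some gamma delta T cells, gave log2 fold change 0.86, SE 0.099, adjusted p = 2.34e-05. As close copies of each other, the H2-Q and H2-T genes share reads, so a single member's value is uncertain. In LLC1 12 were tested and none passed any of the 3 comparisons in edgeR over 9 libraries, with 4, 1 and 3 at an unadjusted p under 0.05. Without replicate 3, 14 were tested. Of these, 4 rose and 3 fell in WT coculture, 0 rose and 3 fell in sgPrrx1 coculture, and 0 rose and 1 fell between the cocultures. Over all genes 22% were higher and 22.2% lower, 12.5% and 14.2%, and 2.94% and 2.75%. The 1 that fell between the cocultures was H2-Q4 (log2 fold change -0.93, SE 0.18, adjusted p = 0.0350). The falls in WT and in sgPrrx1 coculture included H2-Ke6. The rises included H2-Q7, H2-Q8 and H2-Q6, with log2 fold changes of 9.27, 6.69 and 7.38 and SE of 2.67, 1.97 and 2.33. These genes were named after their values were seen.

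Of 13 checkpoint ligands and PD-L1 regulators tested in 168FARN, 4 rose and 3 fell in WT coculture against alone, 5 rose and 4 fell in sgPrrx1 coculture against alone, and 4 rose and 7 fell between the cocultures (33.4% of all genes higher and 30.7% lower, 25.7% and 24.1%, 26.9% and 33.1%), with medians of 0.023, -0.0073 and -0.22. Cd47, the signal that restrains phagocytosis, had 203, 204 and 208 CPM alone, 142, 148 and 136 with WT fibroblasts and 194, 193 and 191 with sgPrrx1 fibroblasts, with log2 fold change -0.52, SE 0.034, adjusted p = 1.66e-07 for WT coculture against alone and log2 fold change 0.44, SE 0.034, adjusted p = 9.96e-07 between the cocultures. Nectin2, a ligand of TIGIT and DNAM-1, was highest with WT CAFs, at 77.6, 72.2 and 72.2 CPM against 47.3, 49.9 and 51.7 alone and 50.7, 49.1 and 48.4 with sgPrrx1 CAFs (log2 fold change -0.58, SE 0.041, adjusted p = 4.82e-07). Cd80, which binds CD28 and CTLA-4, fell in both cocultures against cells alone (log2 fold change -0.67, SE 0.065, adjusted p = 4.55e-06 with WT CAFs, log2 fold change -0.47, SE 0.065, adjusted p = 0.000128 with sgPrrx1 CAFs). In LLC1, 1 rose and 1 fell of 12 tested in WT coculture, 1 rose in sgPrrx1 coculture (4.25% of all genes higher and 4.58% lower in the first, 2.01% higher in the second), and none passed between the cocultures in edgeR, with 1 at an unadjusted p under 0.05. Without replicate 3, 1 of the 12 rose and 6 fell in WT coculture, 1 rose and 4 fell in sgPrrx1 coculture, and 0 passed between the cocultures in edgeR, with 2 at an unadjusted p under 0.05 (22% of all genes higher and 22.2% lower, 12.5% and 14.2%, 2.94% and 2.75%). The 1 that rose was Cd80 both times, the opposite of its direction in 168FARN, and it was named after its values were seen. It gave log2 fold change 1.41, SE 0.33, adjusted p = 0.00916 with WT and 1.53, SE 0.36, adjusted p = 0.0151 with sgPrrx1 fibroblasts. The difference between the lines was not tested for Cd80.

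Likeness of profile was measured by Pearson r over the 9 libraries of a line among 10866 genes in 168FARN and 10993 in LLC1 with a mean of at least 100 counts, as a description of libraries that share groups and depth. In 168FARN the genes most like Cd274 were Ifi47, Rcan1 and Apol9b, each with r = 0.99, and Ifi47 encodes an interferon-inducible GTPase. Among the 10 genes themselves, Cd274 ran with Psmb9 (r = 0.90) and Psmb8 (r = 0.89) and against Tapbp (r = -0.96), while Psmb8 and Psmb9 ran together (r = 0.97). The mean profile of the 9 class I genes was most like that of Snord2 (r = 0.98), 2610001J05Rik (r = 0.97) and Cnot7 (r = 0.96). In LLC1 the genes most like the class I mean were Ier2 (r = 0.996), Spef1 (r = 0.994) and Tmem176b (r = 0.993), and those most like Cd274 were Zbtb39 (r = 0.97), Nox4 and Irak1 (each r = 0.96). Over the 8 libraries left without sgPrrx1 replicate 3, these same genes had r = 0.989 (Ier2), 0.987 (Spef1) and 0.977 (Tmem176b) with the class I mean and r = 0.92 (Zbtb39), 0.87 (Nox4) and 0.88 (Irak1) with Cd274. In LLC1 Cd274 ran against Psmb8 (r = -0.86, n = 9), a pair that has the value of replicate 3 at one end, and r was -0.50 over the 8 libraries without it.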

How the data were processed

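RNA of sorted mouse cancer cells was measured in 18 libraries, and groups and replicate numbers came from the sample titles. Read counts per gene symbol, 1 table for each line, were deposited by the authors, who had used Trimmomatic for trimming, STAR on mm10 for alignment and HTSeq for counting. The study's methods for bulk RNA also name a batch correction with ComBat-seq, which returns whole-number counts, and do not say whether it was applied to these tables, so the counts may be adjusted ones. Treatment of multiply aligned reads and the strand setting are not given in the sources used here. Of the symbols of each line, 27 had been turned into dates and are not named. Fold changes were tested with edgeR 4.0.16 in R 4.3.3: genes kept by filterByExpr (minimum count 10), TMM scaling, 1 mean for each group, a two-sided quasi-likelihood test and Benjamini-Hochberg adjustment over all genes tested, threshold 0.05. The script was tested on simulated data. CPM values use TMM-scaled totals. RPKM divides by the longest coding transcript in GENCODE vM1. Intervals are 95%. No source states that replicates were separate cultures, so p-values measure the spread between these libraries. Alternatives used DESeq2 1.42.0, limma 3.58.1 (voom), other scalings and filters, the replicate block, each library left out, only the 2 groups compared and, chosen after seeing the data, summed heavy chain counts. Genes and lists were chosen with earlier results of these data known. In each list, the genes named are at most the 2 that rose most and the 2 that fell most among those called, given an average of 100 or more counts; the few named otherwise are marked. Figures were drawn with matplotlib 3.10.9.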

Additional observations from a re-analysis of the deposited data

Results flagged for a closer look

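Of the 10 genes, 5 gave 7 differences between the 2 lines that passed the interaction test in edgeR, read as the log2 fold change in 168FARN minus that in LLC1. For Cd274 the difference was 1.21, SE 0.19, adjusted p = 0.000409 in sgPrrx1 coculture against alone and 1.01, SE 0.18, adjusted p = 0.00131 in sgPrrx1 against WT coculture. All 3 sgPrrx1 libraries of 168FARN were above all 6 others of that line, and in LLC1 the 3 groups had means of 9.65 ± 0.867, 9.33 ± 1.14 and 8.29 ± 1.44 CPM (SD, n = 3 each) in the order alone, WT and sgPrrx1. Both Cd274 differences were called under all 25 other settings, with adjusted p of at most 0.00160 and 0.00446.

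For Tapbp the difference was -0.57, SE 0.14, adjusted p = 0.0106 in sgPrrx1 against WT coculture, where every sgPrrx1 library was below every WT library in 168FARN and above every WT library in LLC1. It was called under all 25 other settings, with log2 values from -0.66 to -0.36. For Tap1 the difference was 0.37, SE 0.095, adjusted p = 0.00870 in WT coculture against alone, and it too was called under all 25. For H2-K1 it was 0.61, SE 0.22, adjusted p = 0.0495 in WT coculture against alone, called under 9 of 27 other settings, and 0.78, SE 0.22, adjusted p = 0.0311 in sgPrrx1 coculture against alone, called under 17 of 27, and neither was called with the counts of H2-K1 and H2-D1 summed. For B2m it was 0.44, SE 0.15, adjusted p = 0.0381 in WT coculture against alone, called under 12 of 25, and the B2m libraries were higher in WT coculture in 168FARN and overlapped with cells alone in LLC1. The lines differ in fibroblast type, strain and table as well, which cannot be told apart from the line itself.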

How the results depend on the processing

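In 168FARN the count of the 10 genes past the threshold stayed within 1.5 times its value under every alternative run; leaving out single libraries gave 5 to 6 (WT coculture against alone), 5 to 6 (sgPrrx1 coculture against alone) and 7 to 8 (sgPrrx1 against WT coculture). In LLC1 the same ranges were 0 to 6, 0 to 5 and 0 to 0, with the upper ends reached without LLC1 sgPrrx1 replicate 3. LLC1 WT coculture against alone gave 2 genes with DESeq2, 2 with no scaling factors, 7 with limma voom quality weights and 5 with only the 2 groups in the fit. LLC1 sgPrrx1 coculture against alone gave 1 with DESeq2, 1 with no scaling factors and 7 with voom, and sgPrrx1 against WT coculture gave 3 with voom. Voom gives less weight to libraries that stand apart, and it called 27.8% of all genes higher and 30.8% lower in LLC1 WT coculture against alone. Interaction counts ran from 1 to 5, 1 to 8 and 2 to 4 with single libraries left out. The WT coculture interaction gave 1 gene with RLE scaling and 7 with voom, the sgPrrx1 coculture interaction 4 with DESeq2 and 8 with voom, and the sgPrrx1 to WT interaction 5 with voom. Voom called 32.8% of all genes higher and 27.9% lower, 20.5% and 20.7%, and 24.2% and 30.7% in these 3 interactions.

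Same-numbered libraries did not deviate together in 168FARN (r from -0.073 to 0.063) and not in every pair in LLC1 (r from -0.041 to 0.42, all 3 over 0.1 in sgPrrx1 coculture against alone), and the labels give no shared origin. Of the 6 libraries in a comparison, 4, 3 and 0 in 168FARN and 3, 4 and 4 in LLC1 correlated best with their own number. With the replicate block, the counts were 6, 5 and 7 in 168FARN, 1, 0 and 0 in LLC1, and 3, 4 and 3 for the interactions. The block changed the call of Psmb8 in WT coculture against alone (log2 fold change -0.093, adjusted p = 0.0419) and of Tap2 in sgPrrx1 coculture against alone (-0.098, adjusted p = 0.0565) in 168FARN, of Tapbp (-0.42) and Nlrc5 (0.69) in the sgPrrx1 coculture interaction, of Tap2 (-0.37) in the sgPrrx1 to WT interaction and of Raet1c in LLC1 WT coculture (0.54), and no other call.

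Signs turned only for values that had not passed the test, and of those that turned, H2-D1, Tapbp and Psmb8 in LLC1 sgPrrx1 coculture and Psmb8 between the LLC1 cocultures passed with voom, H2-D1 in LLC1 sgPrrx1 coculture passed without LLC1 sgPrrx1 replicate 3, and the 168FARN sums set against H2-K1 passed in WT coculture. In 168FARN, Tap1 between the cocultures became -0.042 with no scaling and -0.0040 with voom. In LLC1 sgPrrx1 coculture against alone, values with no scaling were -0.029 (B2m), -0.075 (H2-D1), -0.015 (Tap2) and -0.0025 (Tapbp), with the block -0.019 (H2-D1), and with voom -0.069 (B2m), -0.23 (H2-D1), -0.094 (Tap2), -0.10 (Tapbp) and -0.26 (Psmb8). Between the LLC1 cocultures voom gave -0.35 (Psmb8), -0.15 (Psmb9), 0.14 (Nlrc5) and 0.024 (Cd274). The H2-D1 interaction in sgPrrx1 coculture became 0.026 with no scaling, 0.0081 with the block and 0.20 with voom, and in sgPrrx1 against WT coculture 0.064 with voom. Sums over heavy chains gave -0.18 (H2-K1 and H2-D1) and -0.16 (with the H2-L, H2-Q and H2-T genes) against H2-K1 in 168FARN WT coculture, 0.063 and 0.066 against H2-D1 in sgPrrx1 coculture, and in LLC1 sgPrrx1 coculture -0.053 and -0.025 against H2-D1. The same sums gave interactions of 0.13 and 0.11 against H2-D1 in sgPrrx1 coculture and -0.14 and -0.16 against H2-K1 in sgPrrx1 against WT coculture, none past the threshold.

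With single libraries left out, values that turned sign ranged in 168FARN from -0.057 to 0.036 (H2-D1, sgPrrx1 coculture against alone), -0.13 to 0.19 (H2-K1, WT coculture) and -0.0099 to 0.033 (Tap1, between cocultures). In LLC1 they ranged in WT coculture from -0.13 to 0.017 (Cd274) and -0.040 to 0.16 (Psmb8), in sgPrrx1 coculture from -0.12 to 0.14 (B2m), -0.25 to 0.13 (H2-D1), -0.27 to 0.53 (Psmb8), -0.55 to 0.16 (Psmb9), -0.11 to 0.15 (Tap2) and -0.12 to 0.17 (Tapbp), and between the cocultures from -0.26 to 0.13 (Nlrc5), -0.34 to 0.48 (Psmb8) and -0.21 to 0.51 (Psmb9). Among interactions they ranged in sgPrrx1 coculture from -0.14 to 0.23 (H2-D1), -0.18 to 0.60 (Psmb8) and -0.23 to 0.0078 (Tap2), and in sgPrrx1 against WT coculture from -0.32 to 0.077 (H2-D1) and -0.030 to 0.78 (Psmb8). For named genes outside the 10, no sign turned; 1034 alternative values in 168FARN and 130 in LLC1 kept their side of the threshold and 37 and 74 did not.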

Other observations

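MHC class II genes and their regulators, a list of 18 genes, were mostly at low levels, and 14 were tested in 168FARN and 11 in LLC1. Between WT and sgPrrx1 coculture of 168FARN 1 rose and 3 fell (26.9% of all genes higher, 33.1% lower), with a median of -0.11. Nfyc, a subunit of the Y box factor NF-Y, rose (log2 fold change 0.27, SE 0.036, adjusted p = 6.88e-05) and had fallen in WT coculture (log2 fold change -0.31, SE 0.036, adjusted p = 1.95e-05). Rfx5, which binds the X box of class I and class II promoters, rose in WT coculture (log2 fold change 0.25, SE 0.054, adjusted p = 0.00205) against cells alone, and its smaller value in sgPrrx1 coculture (log2 fold change 0.16, SE 0.054, adjusted p = 0.0268) was no longer called with no scaling factors or without replicate 1 of the cells alone or sgPrrx1 replicate 1 or 2 (adjusted p from 0.0518 to 0.0887). In LLC1 Nfyc rose in WT coculture (log2 fold change 0.52, SE 0.10, adjusted p = 0.0192) and in sgPrrx1 coculture (log2 fold change 0.85, SE 0.10, adjusted p = 0.00688). It was the 1 gene of the 11 called by edgeR in each of these comparisons over 9 libraries (4.25% of all genes higher and 4.58% lower, 2.01% and 2.31%), and none was called between the cocultures, with 2 at an unadjusted p under 0.05. Without sgPrrx1 replicate 3, 1 of the 11 rose and 1 fell in WT coculture, 1 rose and 2 fell in sgPrrx1 coculture, and 0 passed between the cocultures in edgeR, with 2 at an unadjusted p under 0.05 (22% of all genes higher and 22.2% lower, 12.5% and 14.2%, 2.94% and 2.75%). Rfx5 fell there in WT coculture (log2 fold change -0.67, adjusted p = 0.000121) and in sgPrrx1 coculture (-0.51, adjusted p = 0.00148), a gene named after its values were seen. The call of Nfyc in WT coculture was lost without any 1 library of cells alone or WT replicate 1 or 3 (adjusted p from 0.0582 to 0.0897). That in sgPrrx1 coculture was lost without replicate 1 or 2 of the cells alone and with only the 2 groups in the fit (0.0523 to 0.0854).

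Of 12 NF-kB genes and NK cell ligands tested in 168FARN, 7 rose and 0 fell in WT coculture, 3 rose and 3 fell in sgPrrx1 coculture, and 0 rose and 7 fell between the cocultures in edgeR (33.4% of all genes higher and 30.7% lower, 25.7% and 24.1%, 26.9% and 33.1%). Tnfaip3, an inhibitor of NF-kB signalling, rose in WT coculture (log2 fold change 0.38, SE 0.041, adjusted p = 1.24e-05) and fell from WT to sgPrrx1 coculture (log2 fold change -0.46, SE 0.041, adjusted p = 3.45e-06), a course opposite to that of Psmb9 and Nlrc5. In LLC1, 2 of 12 rose and 1 fell in WT coculture over 9 libraries (4.25% of all genes higher, 4.58% lower). None passed in the other comparisons in edgeR, with 4 and 3 at an unadjusted p under 0.05. The NKG2D ligand genes Raet1a (log2 fold change 0.76, SE 0.13, adjusted p = 0.0129) and Raet1c (log2 fold change 0.53, SE 0.13, adjusted p = 0.0469) rose, and Nfkb1, which encodes an NF-kB subunit, fell (log2 fold change -0.40, SE 0.10, adjusted p = 0.0483). The call of Raet1a was lost without replicate 1 or 3 of the cells alone or WT replicate 3 (adjusted p from 0.0519 to 0.0693). Those of Raet1c and Nfkb1 were lost without any 1 of the 9 libraries other than sgPrrx1 replicate 3 (0.0552 to 0.181 and 0.0580 to 0.172). Without that replicate 3 rose and 6 fell in WT coculture, 1 rose and 4 fell in sgPrrx1 coculture and 2 rose between the cocultures (22% of all genes higher and 22.2% lower, 12.5% and 14.2%, 2.94% and 2.75%). The Raet1 genes are close copies, so their counts are uncertain.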
